A study of Mus musculus with 12 samples.

Results

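The glycoproteins of the tectorial membrane were examined through 5 genes, Tecta, Tectb, Otog, Otoa and Ceacam16, out of 19505 genes measured along the mouse cochlea. They were read through the non-control probes that the array lists under exactly these gene names, 113 of 165865 probes. All 5 names were found, with 23 probes for Tecta, 9 for Tectb, 51 for Otog, 24 for Otoa and 6 for Ceacam16. Cochleae of male C57BL/6 mice aged 6 weeks had been cut into apical, middle and basal turns, and 4 arrays were hybridized per turn, 12 in all, from 25 ng of total RNA each. The tissue held lateral wall, organ of Corti and, according to the methods, spiral ganglion neurons, so each value is a mixture of many cell types. The study's methods name 4 mice, and it describes the samples of a turn as coming from independent mice. The turns would then share their mice, but the labels do not say which samples of different turns share a mouse. Each turn lay on a slide of its own, and turn and slide cannot be told apart.

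The tectorial membrane is an extracellular gel that lies over the hair cells and couples the motion of the cochlear partition to the stereocilia of the outer hair cells. Collagen fibrils run through a striated sheet built of glycoproteins. Alpha-tectorin and beta-tectorin, encoded by Tecta and Tectb, are zona pellucida domain proteins that form this sheet, and Ceacam16 encodes a secreted adhesion-type protein of the same sheet. Otogelin, encoded by Otog, is a mucin-like glycoprotein of acellular inner ear membranes. Otoancorin, encoded by Otoa, attaches the membrane to the spiral limbus. The frequency to which the cochlea responds falls from base to apex, and the question of the comparison was which genes differ in expression between the turns.

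The signal of a probe is the fluorescence of its spot after background subtraction, scaled to the 75th percentile of its array. The signal of a gene is the mean of its probes on the log2 scale, given here on the linear scale. It ranks samples for 1 gene but not genes against each other, since probes differ in brightness at equal amounts of RNA. A difference passed when limma's moderated contrast had an adjusted p under 0.05 over all genes. Before scaling, that percentile lay at 535 on the dimmest array and 722 on the brightest. The software rated 77.4% to 81.4% of the spots of an array as well above background, and no spot of a member was saturated.

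Each probe is 60 bases long and was designed against an exon, so that a gene is read at several places along its transcript. The 8 Tectb probes below, numbered by their listed start in the transcript NM_009348, are shown because the size of the difference between turns varied widely among them. The Tectb probes span chr19:55255521-55270618 on the plus strand in mm9. Letters are 5′ to 3′ as the array lists them, and no base is marked.
Tectb 146 (chr19:55255521-55255580): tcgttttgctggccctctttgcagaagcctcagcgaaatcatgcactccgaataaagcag
Tectb 332 (chr19:55256411-55256470): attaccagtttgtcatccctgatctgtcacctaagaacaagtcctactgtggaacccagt
Tectb 434 (chr19:55258244-55258303): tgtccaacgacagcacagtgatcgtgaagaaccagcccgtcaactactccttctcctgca
Tectb 553 (chr19:55258466-55258525): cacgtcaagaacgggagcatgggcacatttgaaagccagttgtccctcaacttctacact
Tectb 619 (chr19:55264058-55264117): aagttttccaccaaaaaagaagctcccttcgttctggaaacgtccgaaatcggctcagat
Tectb 722 (chr19:55264283-55264342): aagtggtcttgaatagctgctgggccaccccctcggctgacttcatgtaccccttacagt
Tectb 892 (chr19:55266006-55266065): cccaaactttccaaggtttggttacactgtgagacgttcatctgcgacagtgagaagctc
Tectb 969 (chr19:55267059-55267118): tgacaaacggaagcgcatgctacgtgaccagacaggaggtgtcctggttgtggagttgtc

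Otog (chr7:53496430-53566388, NM_013624) and Otoa (chr7:128235083-128306603, NM_139310) lie on the plus strand in mm9. Otog probe 6099 had the largest fitted apex to base difference of its gene. The size of that difference is uncertain, since the probe was well above background on no basal array. Otog probes 4214 and 8391 were among those that did not pass. The Otoa probes lie toward either end of its transcript, where the difference was small and large.
Otog 4214 (chr7:53541135-53541194): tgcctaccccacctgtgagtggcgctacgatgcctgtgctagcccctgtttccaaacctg
Otog 6099 (chr7:53544296-53544355): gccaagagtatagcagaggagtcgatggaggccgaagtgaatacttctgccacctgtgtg
Otog 8391 (chr7:53561551-53561610): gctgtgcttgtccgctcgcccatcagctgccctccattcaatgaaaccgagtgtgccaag
Otoa 416 (chr7:128242722-128242781): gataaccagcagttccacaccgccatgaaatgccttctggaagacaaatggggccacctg
Otoa 3342 (chr7:128303956-128304015): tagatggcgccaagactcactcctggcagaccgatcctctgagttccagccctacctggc

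Ceacam16 (chr7:20437446-20446517, NM_001033419) and Tecta (chr9:42137738-42206355, NM_009347) lie on the minus strand in mm9. The Ceacam16 probe had the largest apex to base difference of its gene. The Tecta probes are shown because they were well above background on all 12 arrays, where 12 of the 23 Tecta probes were so on none. The Tecta probes and Tectb probes 332 and 969 were chosen after their values were seen. No probe of the members shared 20 bases with a probe of another gene.
Ceacam16 1030 (chr7:20441424-20441483): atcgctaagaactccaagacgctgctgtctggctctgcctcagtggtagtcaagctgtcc
Tecta 5417 (chr9:42151774-42151833): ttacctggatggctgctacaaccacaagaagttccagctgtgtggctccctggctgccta
Tecta 5590 (chr9:42148341-42148400): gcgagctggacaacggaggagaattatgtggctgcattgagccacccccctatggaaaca

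Tectb expression was greater in the apex than in both other turns, and that of Otog rose in steps from base to apex. Expression of Otoa was greater in the base. Tecta and Ceacam16 passed in no comparison, except that both were lower in the apex when arrays were scaled to spike-in probes (given further on). Between apex and base 3 of the 5 members passed, where 39.2% of all genes passed. Tectb and Otog were higher in the apex, as 17.6% of genes were, and Otoa in the base, as 21.6% were. Between apex and middle the same pair was higher in the apex, against 4.42% of genes. Between middle and base Otog was higher in the middle, as were 11.7% of genes, and Otoa in the base, as were 9.21%. A stricter criterion from the methods, an F test over the turns with a 2-fold difference, was met toward the apex by Tectb and Otog against the base (3.27% of genes) and by Tectb alone against the middle (0.297%). For Otog the difference from the base fell below 2-fold, at log2 values of 0.64, 0.58 and 0.80, with normexp background correction, linear averaging of probes and spike-in scaling. The plot of the members by turn shows the values of all arrays.

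**Figure D1:**
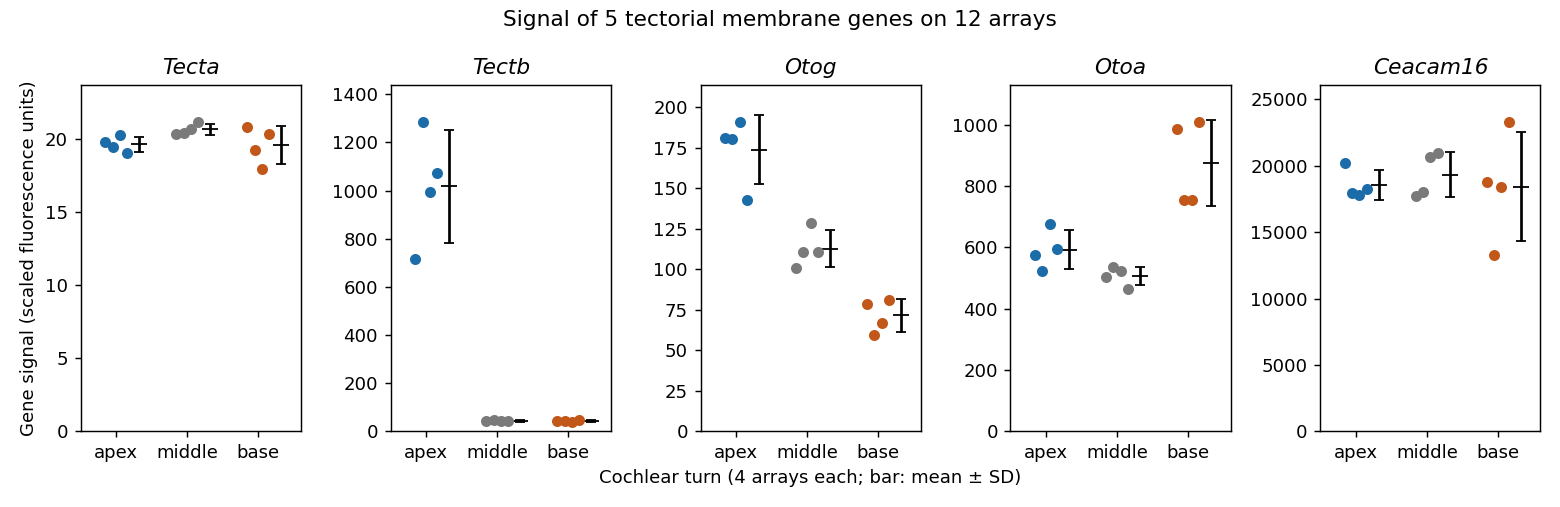
Gene signal (scaled fluorescence units, linear axes from 0, a scale of its own for each gene) of the 5 members by cochlear turn, with a point for each of the 4 arrays and the mean ± SD beside them. Tectb stood at 718 to 1285 in the apex and under 47 elsewhere, Otog fell stepwise from apex to base, Otoa was highest in the base, and Tecta and Ceacam16 differed little.

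Beta-tectorin showed the largest difference of the 5. Tectb signal was 718, 1285, 995 and 1072 on the apical arrays. It was 41.1, 46.8, 42.0 and 41.1 on the middle arrays and 41.5, 42.6, 37.6 and 45.8 on the basal arrays. Every apical array was far above every other array, and the middle and basal arrays overlapped. The apical mean was 1018 ± 234, the middle mean 42.8 ± 2.75 and the basal mean 41.9 ± 3.36 (SD, n = 4 each). Apical expression exceeded basal expression 23.9-fold, a log2 difference of 4.58 (SE 0.145, limma adjusted p = 1.6e-08), and middle expression 23.3-fold (log2 4.54, limma adjusted p = 7.1e-08). Middle and base differed by 0.03 on the log2 scale, with a 95% interval from -0.29 to 0.35 (limma adjusted p = 0.9). Because the tissue is bulk, fewer cells that express a gene and less RNA per cell cannot be told apart.

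All 9 Tectb probes passed toward the apex against the base, where 34.4% of all probes passed in either direction and 18.0% toward the apex. All 9 also passed toward the apex against the middle, where 3.04% of probes did, and 0 passed between middle and base (limma, with 0 also at an unadjusted p under 0.05 and 0 in the unmoderated fit). The size of the difference was smallest at position 722, at 1.5 on the log2 scale. At position 722 the signal was 1271, 1870, 1593 and 1693 in the apex and between 532 and 792 on the other 8 arrays, so that this probe still read well outside the apex. At positions 332, 619, 892 and 2480 no middle or basal array was well above background. There the apex was 35.1-fold, 52.9-fold, 62.4-fold and 211-fold higher than a floor set for the base. The floor was the lowest signal that counted as well above background on each basal array, or the probe's own where higher. These folds are no strict lower bounds, since brighter signals could fail that rating, such as 27.3 at position 332 on basal array 4. Over the 5 probes well above background on all 12 arrays, the median log2 difference was 2.70, with a range from 1.5 to 5.06. The gene-level fold averages probes whose basal means ran from 7.55 to 565. The log2 difference of the gene was 2.91 with normexp background correction and 3.33 when linear signals were averaged. Tectb probes with more G and C tended to differ less (r = -0.779 over 9 probes of 1 gene, which share their libraries). The same correlation was -0.079 for Tecta, -0.162 for Otog, 0.271 for Otoa and -0.073 for Ceacam16.

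**Figure D2:**
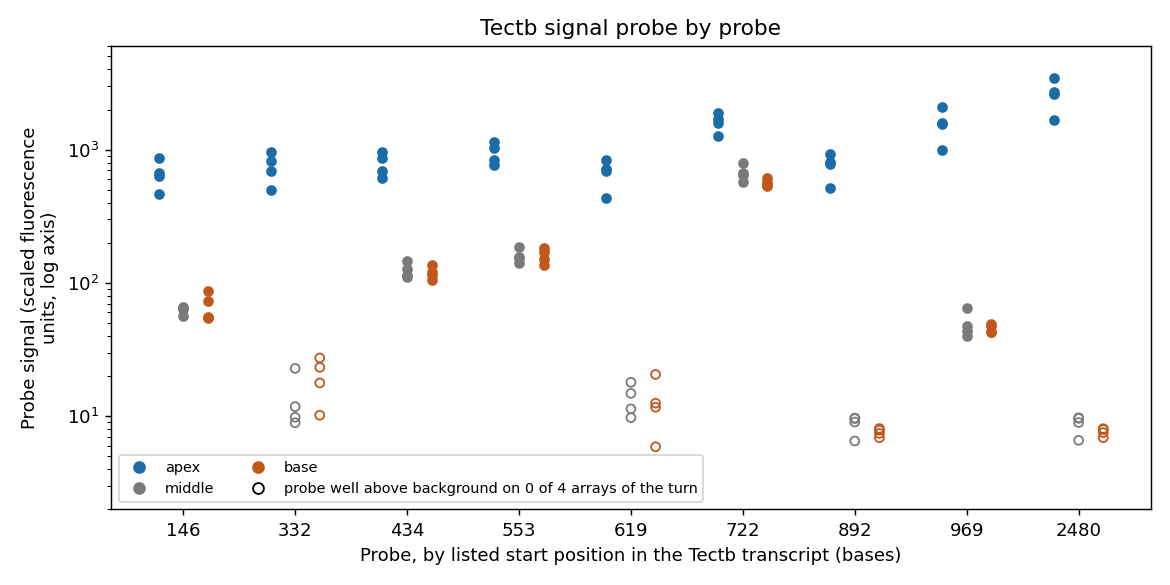
Tectb probe signal (scaled fluorescence units, log axis) by the listed start of the probe in the transcript, with a point per array and open points where the probe was well above background on no array of that turn. All apical arrays lay above all others at each of the 9 probes, by the least at position 722, and 4 probes were open in both middle and base.

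Otogelin expression was graded over all 3 turns. Otog signal was 181, 181, 191 and 143 on apical arrays, 101, 111, 128 and 111 on middle arrays, and 78.7, 59.6, 66.9 and 81.1 on basal arrays. No array of a turn overlapped with those of another. The apical mean was 174 ± 21.3, the middle mean 113 ± 11.5 and the basal mean 71.6 ± 10.1 (SD, n = 4 each). Apical expression exceeded basal expression 2.43-fold (log2 1.28, SE 0.121, limma adjusted p = 1.9e-05). The steps were of like size, 0.62 from middle to apex (limma adjusted p = 0.011) and 0.66 from base to middle (limma adjusted p = 0.0042). With linear rather than log2 averaging of probes, the step from base to middle was 0.21 and did not pass (limma adjusted p = 0.057).

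Of the 51 Otog probes, 45 passed toward the apex in the comparison with the base, where 18.0% of all probes did. Toward the base 1 passed, where 16.4% of all probes did. The other 5, at positions 2028, 4214, 7561, 8271 and 8391, did not pass. Against the middle, 20 passed toward the apex, where 3.04% of all probes did. Between middle and base 28 passed toward the middle, where 7.76% of all probes did, and 1, at position 73, toward the base (6.02%). At position 4214 the signal was 463, 444, 519 and 457 in the apex and 493, 468, 429 and 508 in the base, and the turns overlapped. At position 73, the first probe of the gene, it was between 1007 and 1261 in the apex and between 1526 and 2313 in the base (log2 -0.79). At position 6099 it was between 53.8 and 75 in the apex and was well above background on no basal array. Against a floor set as for Tectb the difference was 4.4-fold, which is no strict lower bound. The median over the 35 probes well above background on all 12 arrays was 1.11, near the value of the whole gene.

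Otoancorin expression ran the other way. Otoa signal was 984, 754, 754 and 1008 in the base, 575, 523, 675 and 594 in the apex, and 503, 535, 522 and 465 in the middle. Every basal array lay above every other array, while apex and middle overlapped. The mean was 875 ± 140 in the base, 592 ± 63.3 in the apex and 506 ± 30.3 in the middle (SD, n = 4 each). Expression was 1.47-fold greater in the base than in the apex (log2 apex minus base -0.56, SE 0.113, limma adjusted p = 0.0025) and 1.72-fold greater than in the middle (log2 middle minus base -0.78, limma adjusted p = 0.0011). Apex and middle differed by 0.22 (95% interval from -0.03 to 0.47, limma adjusted p = 0.2).

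The sign was negative at all 24 Otoa probes, and 20 passed as higher in the base than the apex, where 16.4% of all probes did. Against the middle 22 passed as higher in the base, where 6.02% did. The difference was smaller near the start of the transcript. Its median was -0.31 over the first 8 probes, positions 102 to 1076, then -0.66 over the next 8 and -0.73 over the last 8, positions 2431 to 3589. The correlation of the difference with transcript position was -0.859 over these 24 probes. Such a slope was common on these arrays, with a median of -0.38 over 4945 genes with 10 or more probes, and 5.48% of those genes had a correlation at or below that of Otoa. The part that this slope plays in the Otoa result was not tested.

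Ceacam16 was bright in all turns and passed in no comparison of turns with this scaling. Its signal was 20231, 17985, 17780 and 18242 on apical arrays, 17717, 18022, 20680 and 20944 on middle arrays, and 18744, 13304, 18371 and 23296 on basal arrays. The basal arrays held both the lowest and the highest value, and all turns overlapped. The log2 difference between apex and base was 0.04, with a 95% interval from -0.27 to 0.34 (limma adjusted p = 0.87), and 0 of its 6 probes passed (limma, with 0 also at an unadjusted p under 0.05 and 0 in the unmoderated fit).

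Tecta was dim. Its signal was 19.8, 19.4, 20.2 and 19.0 on apical arrays, 20.4, 20.4, 20.7 and 21.1 on middle arrays, and 20.8, 19.2, 17.9 and 20.3 on basal arrays. Apex and middle did not overlap, and yet their difference of -0.07 did not pass (limma adjusted p = 0.36). Apex and base differed by 0.01, with a 95% interval from -0.11 to 0.12 (limma adjusted p = 0.95). Since 12 of 23 probes were well above background on no array, the mean of the gene lies close to background and its interval does not describe the brighter probes. Over the 5 Tecta probes well above background on all 12 arrays, the log2 difference between apex and base ran from -0.35 to 0.36. Of these, position 5590 passed as higher in the apex, with 113, 89.4, 97.4 and 96.5 in the apex against 73.8, 78.7, 88.5 and 68.4 in the base. Position 7245 passed as higher in the base, with 195, 177, 147 and 144 in the apex against 179, 215, 210 and 240 in the base, and there the turns overlapped.

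With each array scaled to its spike-in probes instead, the median log2 difference of all genes between apex and base moved from -0.04 to -0.52. Tecta then stood at -0.48 and Ceacam16 at -0.45, both close to that median and both past the threshold as higher in the base. Tectb at 4.09, Otog at 0.80 and Otoa at -1.04 kept their directions under that scaling.

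**Figure D3:**
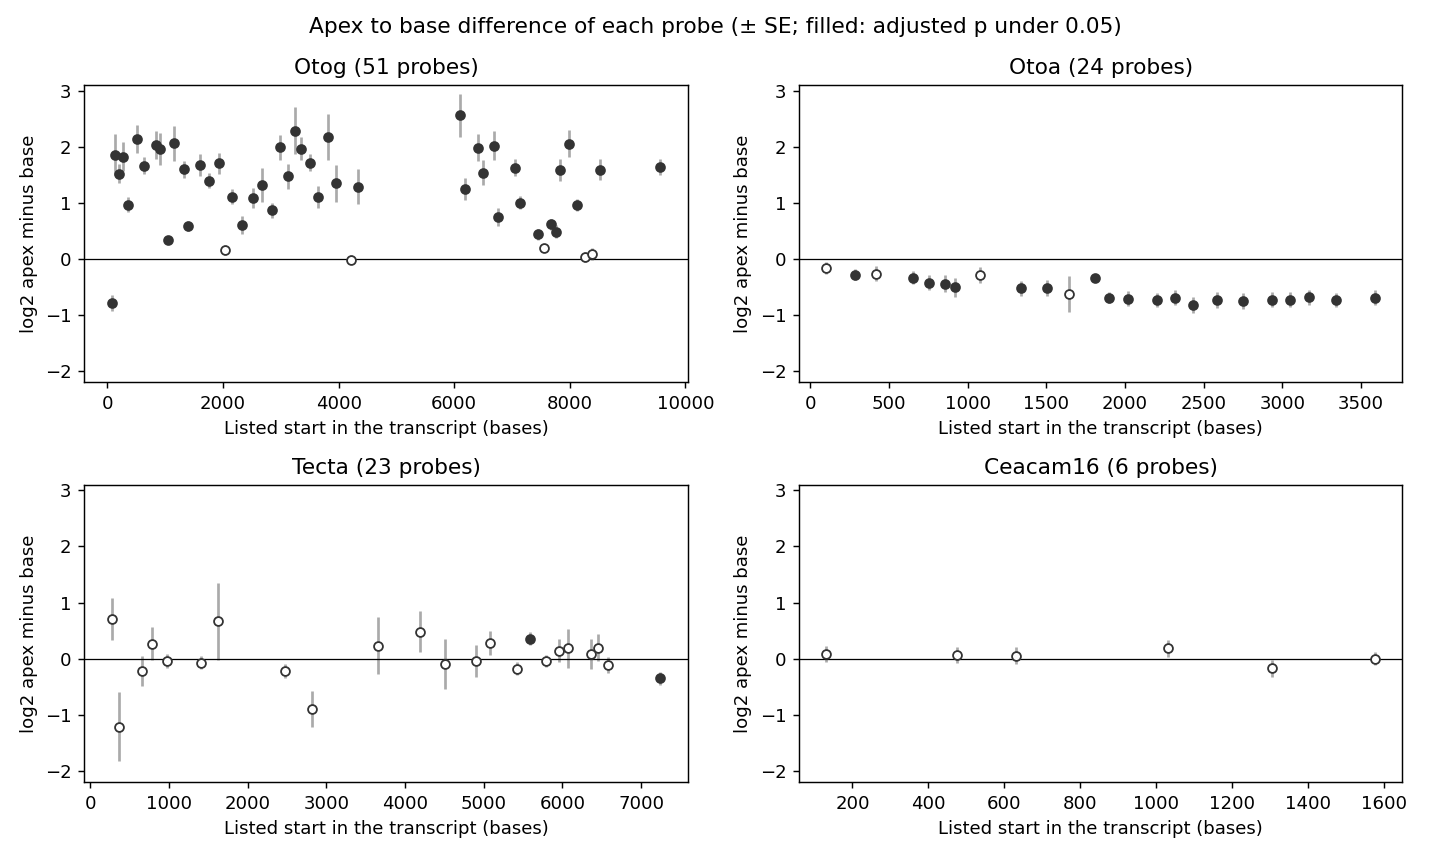
Log2 apex minus base difference (± SE) of each probe against its listed start in the transcript, in bases, for Otog, Otoa, Tecta and Ceacam16, with filled points for an adjusted p under 0.05, probes at background in 1 turn or more included. Most Otog probes lay above 0 with 5 flat ones among them, all 24 Otoa probes lay below 0, and Tecta and Ceacam16 probes scattered about 0 (the gene values were -0.48 and -0.45 when arrays were scaled to spike-in probes).

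A probe was called uneven when its difference from the other probes of its gene changed between turns (limma F test over all probes). This held for 7 Tectb, 19 Otog, 7 Otoa, 1 Ceacam16 and 0 Tecta probes, 34 of 113 in all, against 6.29% of the probes of genes with 3 or more probes. A probe that changes also shifts the mean against which its neighbours are set, so these counts can hold such neighbours. The count fell to 22 without apical array 2 and to 22 without basal array 2. For Tecta, 2 of 23 probes were below an unadjusted p of 0.05 in an unmoderated F test, and 0 after its adjustment.

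The changes of the members were also set against each other on the same arrays. In 9 of 10 pairs the apex to base differences of the 2 genes were unequal, with no overlap between the arrays (exact permutation test, p = 0.0286 for each, the smallest that 35 splits can give, adjusted p = 0.0318). The pairs reuse the same members, so they largely restate the single-gene results. The share of such pairs among other genes was not computed, so the count is not a trait of the members. The Tecta value lies close to background, which limits what the pairs with Tecta show. Between Tectb and Otog the difference was 3.29 on the log2 scale, and between Otog and Otoa it was 1.84. The former depends on the processing, as normexp background correction put Tectb at 2.91 and Otog at 0.64. Tecta and Ceacam16 differed by -0.03 (SE 0.163, exact permutation p = 0.886). Across the 12 arrays, the correlation of Tectb with Otog was 0.82 and that of Otog with Otoa -0.55, a description over arrays that fall into 3 turns.

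The genes most like a member across the 12 arrays were listed among 16507 genes by Pearson's r of log2 signals. This r compares the pattern over arrays and not the size of a change. For Tectb these genes were AU021092 (0.98), Tnc (0.979), Dse (0.978), Nr2f2 (0.978) and Sipa1l1 (0.976). Their log2 apex to base differences were 1.2, 2.6, 0.52, 0.86 and 0.36, in that order, against 4.58 for Tectb. Tnc, which encodes the matrix protein tenascin C, had mean signals of 80.6, 15.2 and 12.9 in apex, middle and base, and Nr2f2, a nuclear receptor, of 2550, 1520 and 1410. For Otog they were Slc8a2, a sodium-calcium exchanger (0.992), Cachd1 (0.984) and Mybpc1 (0.982). For Otoa they were Setd7 (0.976), Folr1, a folate receptor (0.956) and Crlf3 (0.95). Adamts13, Slc6a19 and Lamp3 for Tecta and Galntl2, Krt31 and Zfp707 for Ceacam16 had correlations between 0.813 and 0.915. Those for Tecta were dim like Tecta itself, with mean signals from 18.6 to 39.1. Galntl2 and Krt31 were dim too, at 29 to 36.7.

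Other genes of the tectorial membrane and its kin did not share 1 direction. Of a list of 26 such genes, 25 were on the array by name, Otogl being the exception. Between apex and base 6 were higher in the apex, 9 were higher in the base and 10 did not pass, with a median of -0.05 against -0.04 over all genes. Over all genes, 17.6% passed toward the apex and 21.6% toward the base, and the counts of collagens, other listed genes and cell markers below have the same background. All 6 collagens of the fibrils, which belong to collagen types II, IX and XI, were higher in the base, among them Col11a1 (1.96-fold, limma adjusted p = 0.00023), Col2a1 (1.67-fold) and Col9a3 (1.64-fold). Their summed signal was 2908 to 3391 on apical, 3044 to 3478 on middle and 4584 to 5382 on basal arrays.

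Among genes of attachment and other inner ear matrix, Strc rose 3.65-fold from base to apex (limma adjusted p = 2.2e-06). It encodes stereocilin, which links the outer hair cell stereocilia to the tectorial membrane, and its signal was 103 to 151 on apical, 76.5 to 91.5 on middle and 28.3 to 38.6 on basal arrays. Otos, the fibrocyte gene for otospiralin, was 2.43-fold higher in the base, and Coch, the gene for cochlin, 1.48-fold. Of 12 other zona pellucida domain genes, 4 were higher in the apex, among them Zp1 (2.11-fold), Zpld1 (1.75-fold) and Umodl1 (1.73-fold). Eng alone was higher in the base (1.59-fold). Zpld1 and Umodl1 were dim, with mean signals of 20.5 and 36.7 in the apex, 14.5 and 41.2 in the middle, and 11.7 and 21.0 in the base.

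**Figure D4:**
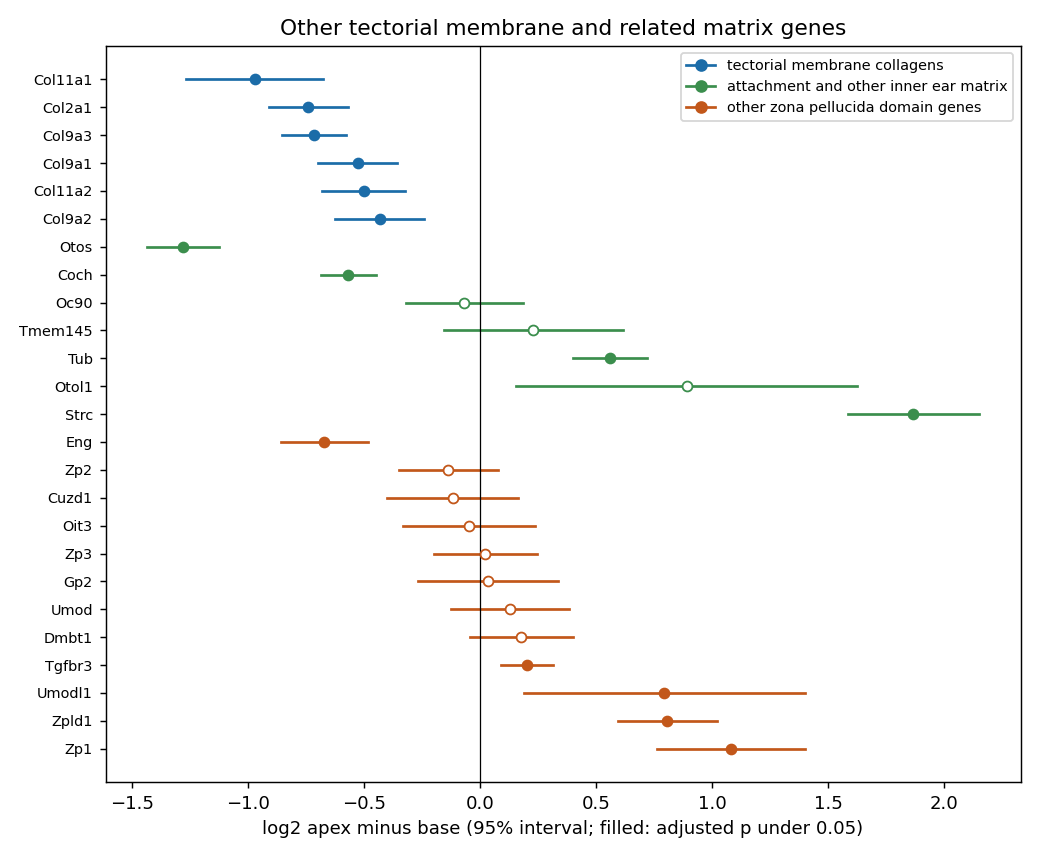
Log2 apex minus base difference with its 95% interval for 25 other tectorial membrane and related matrix genes, coloured by group, with filled points for an adjusted p under 0.05. The 6 collagens lay left of 0, toward the base, and Strc lay farthest right, toward the apex.

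Marker genes of cell types moved with the turns as well. Between apex and base, 9 of 10 hair cell markers were higher in the apex, with a summed signal of 16110 to 20500 there and 5004 to 7512 in the base. Of 10 supporting cell markers 6 were higher in the apex and 1, Gjb6, in the base. Their sum was 85940 to 95590 in the apex and 138500 to 166000 in the base. Gjb6 made up most of that sum, with log2 means of 16.4 in the apex and 17.2 in the base, so the sum mainly follows this gene. Of 6 neuronal markers 5 were higher in the apex and 1, Prph, in the base, with sums of 24440 to 31940 and 4481 to 20060, and all 4 Schwann cell markers were higher in the apex, with 12150 to 13730 and 6060 to 11710. In the base, 5 of 6 stria vascularis markers were higher (47170 to 54230 in the apex, 71310 to 89640 in the base), as were all 4 fibrocyte markers (233600 to 255200 and 478500 to 543300). The fibrocyte sum mainly follows Otos and Coch, with basal means of 367700 and 138700. The fibrocyte markers Pou3f4 and Tbx18 were 1.27-fold and 1.18-fold higher in the base. Of 4 bone and 3 blood markers 0 passed (limma), with 1 bone and 0 blood markers below an unadjusted p of 0.05 and 0 in the unmoderated fit. The bone sum was 2220 to 15540 in the apex and 7747 to 9351 in the base, and the blood sum 21440 to 60360 and 28630 to 75670. Coch and Otos stand both among the fibrocyte markers and among the matrix genes above. All markers were detected, and the part of these cells in the results for Tectb, Otog and Otoa was not tested.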

How the data were processed

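RNA from 3 cochlear turns was measured on 12 single-color exon arrays, 4 per turn, grouped by their titles. The authors extracted a fluorescence intensity per spot with Agilent Feature Extraction 10.7.3.1, which subtracted the background, and deposited these intensities with no normalization between arrays. Probe positions are in mm9. The value table that the authors also deposited equals the processed intensity. Here, control spots and flagged spots were left out, which removed 119 probes. Arrays were scaled to a common 75th percentile, log2 values of repeat spots and then of the probes of a gene name were averaged, and turns were compared with limma 3.58.1 in R 4.3.3 on all 12 arrays, with Benjamini-Hochberg adjustment over 19505 genes or 165865 probes. Alternatives were quantile or spike-in scaling, normexp background correction (offset 50), the value table, probe filters, median or linear averaging, 16 added to each signal, unmoderated or robust tests, only the turns compared, a replicate block and each array left out. Pairs of members were compared by exact permutation. The code was tested on simulated data, with full recovery required only of effects that were large for their SE. That rule replaced a demand on overall recovery after missed features had been seen. The study's methods averaged 4 arrays per turn and used a one-way analysis of variance.

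Named were the members, up to 10 listed partner genes that passed in a comparison, by size of the apex to base difference, the 5 genes most like Tectb and the 3 most like each other member, and the member probes with the largest, smallest or uneven differences. The members, lists and tests were chosen with earlier results of these data known. All 5 members matched RefSeq symbols. The replicate number was not used as a pairing, since no label ties it to an animal. The precision is limited by the number of arrays, with a median SD of a gene within a turn of 0.106 to 0.126 log2 units.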

Additional observations from a re-analysis of the deposited data

Results flagged for a closer look

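In 2 of 45 groups of 4 arrays (5 members and 10 partner genes in 3 turns), 1 array stood far from the others; chance gives about 1 in 20, or 2.25. For Strc in the base the gap was 0.887 of the range, both taken on the log2 scale, with signals of 38.0, 28.3, 37.3 and 38.6. For Col11a1 in the middle it was 0.878, with 326, 328, 354 and 329. No member was among them.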

How the results depend on the processing

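Of 515 values over 25 alternatives, 484 kept their direction and their side of the threshold, or stayed within 1.5 times a count. Many of them could not move freely, so this count says little on its own. The value table equals the processed intensity, and the alternative tests and the replicate block leave the log2 differences unchanged. Leaving out a middle array leaves the apex to base difference unchanged. The share of all genes or probes that pass was not counted under the alternatives, so counts of members there have no background. Scaling to spike-in probes gave 5 members past the threshold between apex and base. It turned Tecta to -0.48 (limma adjusted p = 0.001) and Ceacam16 to -0.45 (limma adjusted p = 0.015). Tecta also passed between apex and middle at -0.29 (limma adjusted p = 0.04), and the median of all genes moved with them. Averaging linear signals left 1 member past the threshold between middle and base, with Otog at 0.21 (limma adjusted p = 0.057); the cause was not tested. The log2 apex to base difference of Tectb was 2.91 with normexp background correction, 3.33 with linear averaging and 3.87 with 16 added to each signal; that of Otog was 0.64, 0.58 and 1.02. Leaving out single arrays, Tectb ran from 4.45 to 4.73, Otog from 1.20 to 1.38 and Otoa from -0.62 to -0.48, and uneven member probes from 22 to 31, against 34 with all arrays.

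The other changes of sign were small differences that passed neither in the main processing nor under the alternative. Between apex and base, Tecta was -0.13 with quantile normalization, -0.049 with normexp, -0.016 with the median of probes and -0.066 with linear averaging, which put Ceacam16 at -0.0028. Between middle and base, Tecta was -0.11 with quantile normalization, -0.19 with spike-in scaling, -0.051 with only probes well above background, -0.0022 with the median of probes and -0.012 with linear averaging. There Tectb was -0.10 with quantile normalization and -0.24 with spike-in scaling, and Ceacam16 was -0.18 with spike-in scaling. Between apex and middle, Ceacam16 was 0.063 with quantile normalization and Tecta 0.064 with only probes well above background. With single arrays left out, apex to base ran from -0.036 to 0.036 for Tecta and from -0.11 to 0.16 for Ceacam16, and middle to base from -0.019 to 0.076 for Tectb and from -0.054 to 0.22 for Ceacam16.

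With the sample number as a replicate block, 3 members passed between apex and base, with adjusted p of 1.8e-06 for Tectb, 0.00021 for Otog and 0.0071 for Otoa (limma). The block changed no other call of a member, and 26 probes were uneven. Deviations of same-numbered samples correlated with a mean of 0.0949 over 12 pairs, 6 of them over 0.1, against -0.0313 over 36 pairs of different numbers. Of the 12 arrays 8 correlated best with their own number. No label states what a number stands for, and whether same-numbered samples share a mouse was not tested. Signal over background limits Tecta, 4 Tectb probes and 6 Otog probes that were well above background on no basal array.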
